A study of Mus musculus with 6 samples.

Results

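The epidermal growth factor (EGF) receptor family was examined in mouse cortical bone tubes cultured without or with parathyroid hormone (PTH). The members were 10 genes, taken by symbol with every probe that represents them. They were the receptors *Egfr*, *Erbb2* and *Erbb3*, the ligands *Areg*, *Ereg*, *Hbegf*, *Tgfa*, *Btc* and *Nrg1*, and the inhibitor *Errfi1*, out of 29537 genes in the deposited table. The table lists 8 members under their current symbol, with 14 probes. A further 4 probes carry older symbols of members, namely 9030024J15Rik for *Egfr*, Dtr and Hegfl for *Hbegf* and 1300002F13Rik for *Errfi1*, which gave 18 probes in all.

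The tubes were the shafts of tibia and femur from C57BL6 mice, given as 3 months old in the labels, freed of marrow by flushing and of surface cells by collagenase and trypsin. Both groups were kept overnight in serum-containing aMEM before fresh medium was given, and then cultured for 24 hours, either untreated (Control) or with 250 nM PTH 1-34. RNA from the pooled bones of several mice was hybridized to 6 Illumina bead arrays, 3 of them Control and 3 PTH. Nothing in the labels says that the preparations came from separate groups of mice, so the p-values measure only the spread between arrays, which may be technical. As the RNA came from whole bone tubes, fewer cells of a type and less RNA per cell cannot be told apart.

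The receptors of this family are tyrosine kinases of the cell surface. Most of their ligands are made as membrane-anchored precursors that proteases of the ADAM family release, and bound receptors pair with one another and signal through RAS and MAP kinases and through PI3 kinase. EGFR binds amphiregulin, epiregulin, heparin-binding EGF, TGF-alpha and betacellulin, ERBB3 binds neuregulins, and ERBB2 has no known ligand of its own and acts as a partner. ERRFI1 (also called MIG6) is induced by receptor signaling and binds and inhibits the kinase. In bone, EGF receptor signaling is known to act in cells of the osteoblast lineage, and *Areg* is known as a gene that PTH induces in osteoblasts, where the PTH receptor raises cAMP.

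Because cAMP acts on transcription largely through the cAMP response element, the sequence before the start of the member genes was searched for the full element. RefSeq promoter windows on GRCm38.p6 were searched for 6 of the 10 members, in 7 windows of 250 bases before the annotated start. The *Hbegf* window was left out by choice, and no window was used for *Erbb3*, *Ereg* or *Nrg1*. The letters TGACGTCA, which read the same on both strands, occurred in 2 of the 7 windows, those of *Areg* and of the second *Errfi1* start, and in 508 of 32851 windows (1.55%) over all genes. TATAAA, searched on both strands with no overlap with the first motif, was present in the same 2 windows and in 12.4% of all windows. These windows are shown with the *Egfr* window, which held neither motif, and capitals mark the motifs.
Areg (chr5:91139349-91139598, plus strand): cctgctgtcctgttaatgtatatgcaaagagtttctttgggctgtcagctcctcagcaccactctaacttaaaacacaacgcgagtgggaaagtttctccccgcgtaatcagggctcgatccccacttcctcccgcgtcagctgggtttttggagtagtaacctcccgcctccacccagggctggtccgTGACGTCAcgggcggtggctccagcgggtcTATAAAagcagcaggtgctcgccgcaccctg
Errfi1, second start (chr4:150854820-150855069, plus strand): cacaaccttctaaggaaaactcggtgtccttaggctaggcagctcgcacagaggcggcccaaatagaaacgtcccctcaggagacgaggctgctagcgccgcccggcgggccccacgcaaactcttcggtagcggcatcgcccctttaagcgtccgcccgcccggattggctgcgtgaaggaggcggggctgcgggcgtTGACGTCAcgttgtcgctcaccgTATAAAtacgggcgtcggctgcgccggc
Egfr (chr11:16751953-16752202, plus strand): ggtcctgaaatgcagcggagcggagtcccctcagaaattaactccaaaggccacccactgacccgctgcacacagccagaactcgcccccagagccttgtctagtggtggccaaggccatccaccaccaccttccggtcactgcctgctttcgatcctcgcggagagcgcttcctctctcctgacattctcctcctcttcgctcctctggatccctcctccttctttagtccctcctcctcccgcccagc
The first base of TGACGTCA lay 61 bases before the annotated start of *Areg* and 51 bases before that of *Errfi1*, and TATAAA began 31 and 28 bases before the start. On the arrays these promoters belonged to genes with opposite detection, since *Areg* was above background on no array and *Errfi1* on all 6. A match of letters is a description and does not show that a factor binds there.

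A probe was above background on an array if its detection p-value, which compares it with the negative control beads, was under 0.05, and it was tested if that held on at least 3 of the 6 arrays. Signals are given as normalized log2 values after background correction, so that a difference of 1 is a doubling. Of the 18 member probes 7 were tested, 4 for *Egfr* and 1 each for *Erbb2*, *Hbegf* and *Errfi1*. Of the 11 others, 7 were above background on no array, 2 on 1 array and 2 on 2 arrays. Thus 4 of the 10 genes were tested, and *Erbb3*, *Areg*, *Ereg*, *Tgfa*, *Btc* and *Nrg1* had no probe that reached the filter.

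**Figure D1:**
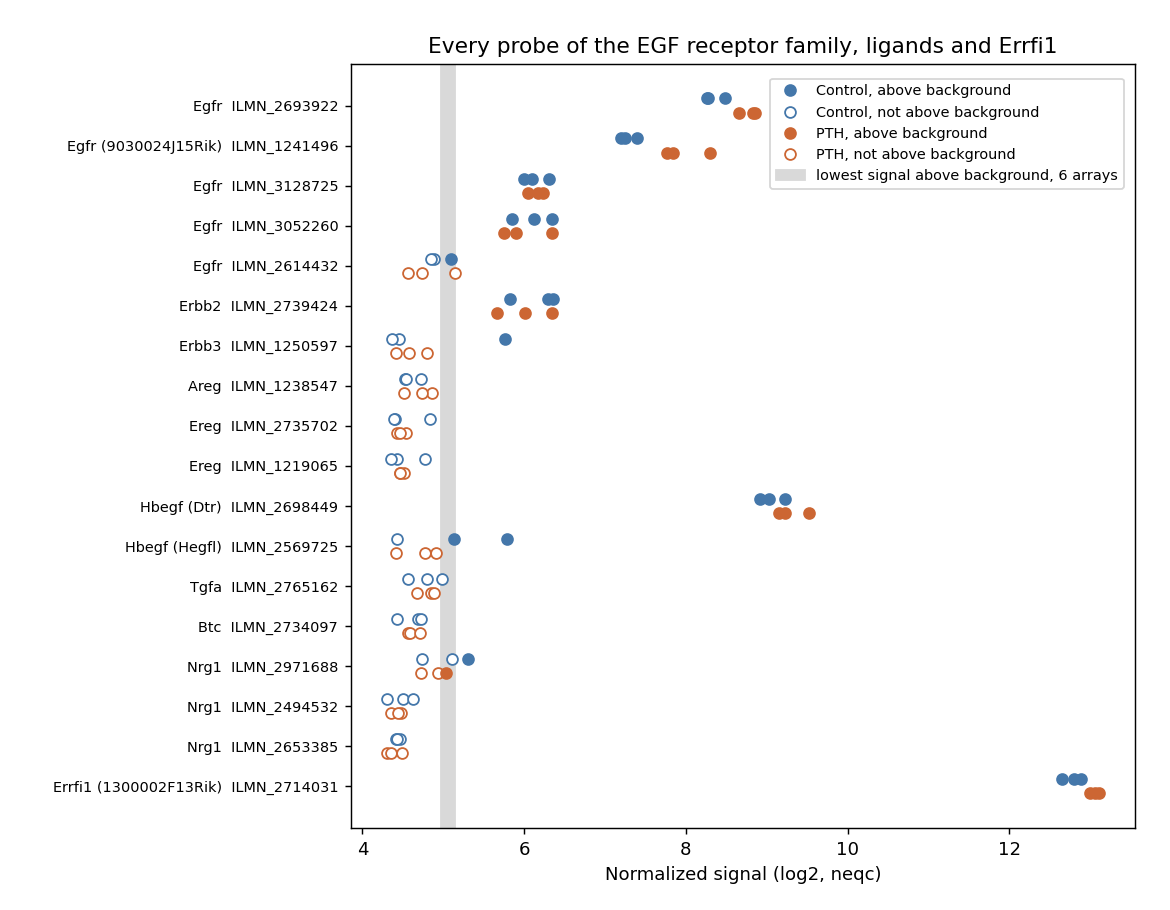
Normalized log2 signal (x axis) of each of the 18 member probes (rows), with 1 point per array, 3 Control in blue and 3 PTH in orange. Filled points are above background by detection p-value and open points are not, and the grey band spans the lowest signal above background on the 6 arrays, 4.97 to 5.15. Levels of different probes cannot be compared with each other. Most ligand probes lie in or left of the band, and the *Errfi1*, *Hbegf* (Dtr) and the upper *Egfr* probes lie to its right.

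No tested member gene was called, meaning an adjusted p under 0.05 by limma and a change of 1.5-fold or more, up or down. By the same rule 202 of the 11490 genes tested on the array were called (1.76%). At the level of probes, 0 of 7 were called against 261 of 16214 (1.61%). At an unadjusted p under 0.05, 1 member gene (*Egfr*) and 2 member probes (both of *Egfr*) passed. The share of all genes at that threshold was not counted, so these counts have no comparison. With a 1.5-fold change also required, 0 member genes passed, beside 601 of all 11490 genes. By that rule 1 member probe passed, and the share of all probes was not counted. The 3 PTH arrays were all above the 3 Control arrays for 2 of the 4 tested genes, *Egfr* and *Errfi1*, which compares with 11.0% of all genes tested, and no member had all PTH arrays below Control (10.9% of all genes). The median log2 difference (PTH minus Control) over the 4 tested genes was 0.26, and over all genes it was 0.005, with quartiles of -0.16 and 0.16. These 4 genes are the members that passed the filter and do not stand for all 10.

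Among the receptors, *Egfr* had the most probes, and they did not give a single answer. The *Egfr* probe with the highest signal (ILMN_2693922) read 8.27, 8.48 and 8.26 on Control and 8.85, 8.83 and 8.66 on PTH. All 3 PTH arrays were above all 3 Control arrays. The mean went from 8.33 ± 0.13 to 8.78 ± 0.11 (SD, n = 3 arrays each), a log2 difference of 0.44 (SE 0.13, 95% interval 0.14 to 0.75) or 1.36-fold. This did not pass the adjusted test (limma, adjusted p = 0.169, unadjusted p = 0.00956), and the difference ranked 1314 of 11490 genes by size. An exact two-sided permutation test gave p = 0.1, the smallest that 3 against 3 arrays allow.

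The *Egfr* probe listed as 9030024J15Rik (ILMN_1241496) read 7.25, 7.39 and 7.20 on Control and 8.30, 7.84 and 7.77 on PTH. Again the groups did not overlap, and PTH 1 was the highest of the 6 arrays. Its mean went from 7.28 ± 0.10 to 7.97 ± 0.28 (SD, n = 3), a log2 difference of 0.69 (SE 0.17, 95% interval 0.30 to 1.08) or 1.61-fold. The adjusted p by limma was 0.104. It was called when the background offset was 50 in place of 16 (log2 difference 0.59, limma adjusted p = 0.032) or when probes were tested only with a detection p under 0.01 on all 6 arrays (0.69, adjusted p = 0.0439).

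The other *Egfr* probes were dimmer, and their groups overlapped. ILMN_3128725 read 6.31, 6.10 and 6.0 on Control and 6.23, 6.17 and 6.05 on PTH. Its log2 difference was 0.017 (SE 0.13, 95% interval -0.29 to 0.33, limma adjusted p = 0.97), and relative to the median of all genes it changed sign to -0.017 when arrays were scaled by their medians. ILMN_3052260 read 6.12, 6.34 and 5.85 on Control and 6.35, 5.90 and 5.75 on PTH, with a log2 difference of -0.11 (SE 0.20, 95% interval -0.56 to 0.35, limma adjusted p = 0.86), which turned to 0.010 without Control 2 and 0.018 without PTH 3. The fifth *Egfr* probe, ILMN_2614432, was above background on Control 3 alone and was not tested.

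The *Egfr* probes were also compared within each array, as the log2 gap between the probe with the highest signal and each of the others. It exceeded ILMN_3128725 by 1.96, 2.38 and 2.25 on Control and by 2.61, 2.67 and 2.60 on PTH (log2). The groups did not overlap, and the mean gap was 0.43 wider with PTH (exact permutation p = 0.1, the smallest possible). Against ILMN_3052260 the gap was 2.15, 2.14 and 2.40 on Control and 2.50, 2.94 and 2.91 on PTH, wider by 0.55 (exact permutation p = 0.1). Between the highest *Egfr* probe and 9030024J15Rik the gap went the other way, from 1.05 to 0.81 (means, n = 3), a difference of -0.25 (exact permutation p = 0.1). Under the other scalings these 3 differences kept their signs, at 0.35 to 0.49, 0.40 to 0.62 and -0.24 to -0.11. The sources used here do not give which part of which *Egfr* transcript each probe targets. The mean of the 4 tested *Egfr* probes gave a log2 difference of 0.26 (limma adjusted p = 0.413).

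**Figure D2:**
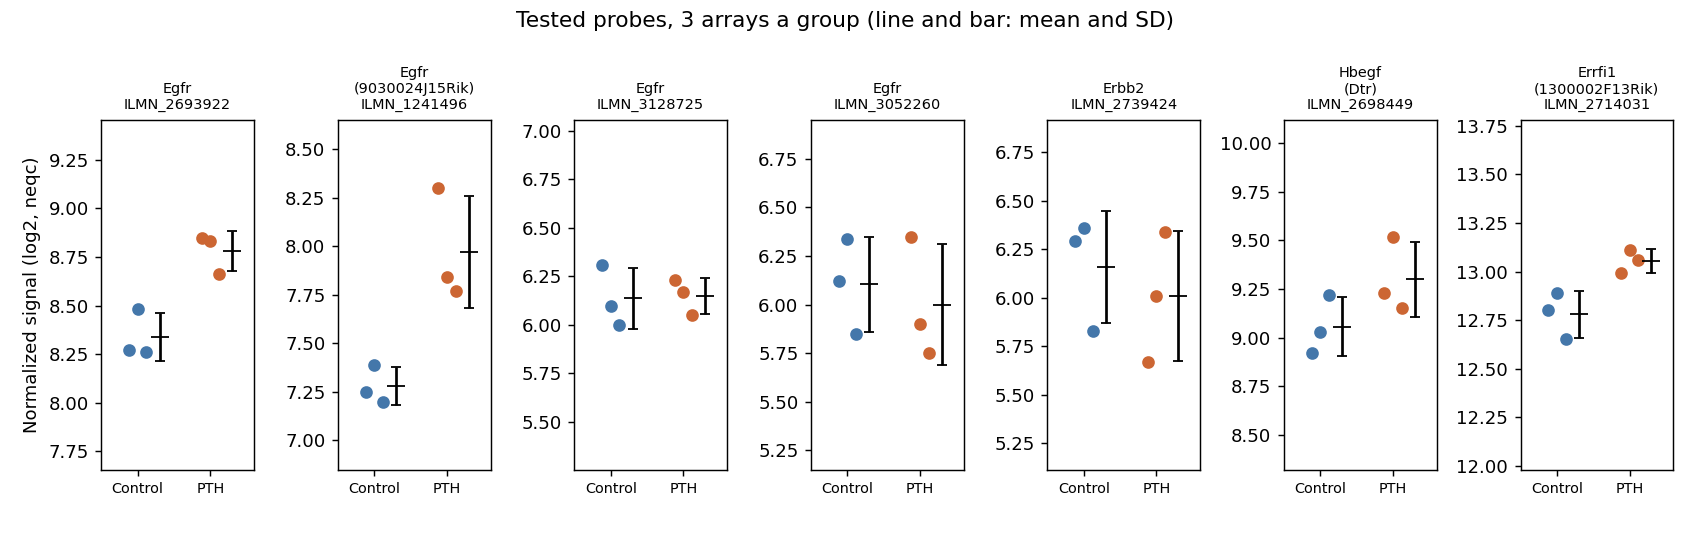
Normalized log2 signal (y axis) of the 7 tested member probes, 1 panel a probe, with 1 point per array and the group mean and SD beside the points (n = 3 Control, blue, and 3 PTH, orange). Each panel spans the same number of log2 units around its own level. The groups are apart for the first 2 *Egfr* probes and *Errfi1*, and they overlap in the other panels.

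*Erbb2*, the partner receptor, was above background on all 6 arrays, with 1 probe. It read 6.29, 6.36 and 5.83 on Control and 5.67, 6.01 and 6.34 on PTH. The groups overlapped, with PTH 3 between the upper Control arrays and Control 3 below PTH 2. The mean was 6.16 ± 0.29 for Control and 6.01 ± 0.34 for PTH (SD, n = 3), a log2 difference of -0.15 (SE 0.21, 95% interval -0.65 to 0.34, limma adjusted p = 0.806). Without PTH 1 the difference was 0.016, so its sign rested on that array.

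*Erbb3*, the neuregulin receptor, was above background on Control 2 alone. Its deposited intensity there was 159, against 107 and 96 on the other Control arrays and 107, 99.5 and 128 with PTH. Schwann cells are known for high *Erbb3*, and their markers were read beside it. Of the 6 Schwann markers read on the array, 4 (*Sox10*, *S100b*, *Prx* and *Gfap*) were above background on no array, and the tested *Mbp* and *Pmp22* had a summed normalized signal of 339 to 472 on Control and 289 to 366 on PTH. *Pmp22* was highest on Control 2 (8.52 on the log2 scale) and *Mbp* on PTH 1 (6.98). The part of these cells in the *Erbb3* value was not tested.

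Among the ligands, the heparin-binding EGF gene *Hbegf* was the only one tested. Its probe listed as Dtr read 8.92, 9.03 and 9.22 on Control and 9.23, 9.52 and 9.15 on PTH. PTH 3 lay below Control 3, so the groups overlapped, while PTH 2 was the highest array. The mean was 9.05 ± 0.15 for Control and 9.30 ± 0.19 for PTH (SD, n = 3), a log2 difference of 0.24 (SE 0.15, 95% interval -0.11 to 0.59) or 1.18-fold, with a limma adjusted p of 0.525. The second *Hbegf* probe, listed as Hegfl, was above background on Control 1 and Control 2 and on no PTH array, with log2 signals of 5.79, 5.13 and 4.43 on Control and 4.78, 4.42 and 4.91 on PTH. No direction was read from it.

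The amphiregulin gene *Areg* was not above background on any array. Its deposited intensity was 117, 121 and 105 on Control and 105, 118 and 125 on PTH, with detection p-values between 0.125 and 0.54. The groups overlapped, and both lay at the level of the negative controls, so no fold change can be given. The same held for epiregulin (*Ereg*, 2 probes), TGF-alpha (*Tgfa*) and betacellulin (*Btc*), which were above background on 0 arrays. The lowest detection p-value of *Tgfa* was 0.0791, on PTH 3. Neuregulin 1 (*Nrg1*) had 3 probes, of which ILMN_2971688 was above background on Control 3 and PTH 3 and the other two on no array. That probe gave log2 signals of 5.11, 4.74 and 5.30 on Control and 4.94, 4.72 and 5.04 on PTH, within the range where array 3 of each group reached the background limit and the rest did not. A level below background on this array does not show that a transcript is absent. All arrays were made after 24 hours of culture with or without PTH, and no earlier time was measured.

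*Errfi1*, the feedback inhibitor of the receptor kinase, was far above background on every array. Its deposited intensity was 5860, 7530 and 6270 on Control and 6890, 9160 and 11800 on PTH. After normalization it read 12.80, 12.89 and 12.65 on Control and 12.99, 13.11 and 13.06 on PTH. All PTH arrays were above all Control arrays, with PTH 1 the nearest to Control. The mean went from 12.78 ± 0.12 to 13.05 ± 0.06 (SD, n = 3), a log2 difference of 0.27 (SE 0.12, 95% interval -0.016 to 0.56) or 1.21-fold. It did not pass the test (limma adjusted p = 0.372, unadjusted p = 0.0613), and the exact permutation test gave p = 0.1.

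A pair of genes known to respond to PTH in bone was read as a check. *Ibsp*, which encodes bone sialoprotein, fell from 12.52 ± 0.03 to 10.52 ± 0.04 (log2 difference -2.01, limma adjusted p = 0.000747), and *Tnfsf11*, which encodes RANKL, rose from 8.39 ± 0.48 to 9.88 ± 0.22 (1.49, limma adjusted p = 0.0298). Of other genes that the study names as lowered by PTH, *Mepe* (-1.02, limma adjusted p = 0.0128) and *Sp7* (-0.81, limma adjusted p = 0.0259) passed. Others did not, among them *Sost* (-1.21, limma adjusted p = 0.15), *Dmp1* (-1.21, limma adjusted p = 0.0557) and *Phex* (-0.88, limma adjusted p = 0.0761). The *Sost* groups overlapped. *Sost* was above background on 4 arrays, and its signals of 4.52 on PTH 1 and 4.46 on PTH 2 lay at background. The median SE of a gene's difference was 0.16 on the log2 scale, and a 1.5-fold change is 0.58.

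The wider pathway was followed with a list of 86 genes, of which 85 were on the array and 64 were tested. Of these, 0 rose, 2 fell and 62 did not pass the test (3.12% called, against 1.76% of all genes), and the median difference was -0.005. All PTH arrays lay above Control for 15 of the 64 genes and below Control for 9. Over all genes tested these shares were 11.0% and 10.9%. The fourth receptor *Erbb4* and the ligand *Egf* were above background on no array, and the ligand epigen (*Epgn*) on 1. With *Nrg2*, *Nrg3* and *Nrg4*, none of these 6 further receptor and ligand genes was tested.

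None of the 8 genes that release or restrain ligands (ADAM proteases, iRhoms and *Timp3*) was called. Their differences ran from -0.074 to 0.33, with a median of 0.20, and *Adam17*, the main sheddase of EGF receptor ligands, went from 7.98 to 8.16 (limma adjusted p = 0.61). The 11 tested adaptors and exchange factors had a median of -0.011 and the 18 tested kinases, RAS proteins and STATs a median of -0.017, and 0 of either were called. The 15 tested genes of feedback and receptor turnover had a median of -0.014 with 0 called. PTH arrays lay all above Control for 5 and all below for 2, beside 11.0% and 10.9% of all genes tested. *Spry4*, a Sprouty inhibitor of RAS-MAP kinase signaling, read 5.62, 5.83 and 5.38 on Control and 4.75, 5.30 and 4.62 on PTH. It was above background on 4 arrays and not on PTH 1 and PTH 3, so its log2 difference of -0.72 (SE 0.21, limma adjusted p = 0.163) rests partly on signals at background, and it was -0.24 with quantile normalization alone and -0.37 with an offset of 50.

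The 2 genes that fell were among the 12 tested immediate early targets of the pathway, whose median difference was 0.035. In this group 4 genes had all PTH arrays above Control and 3 had all below, beside 11.0% and 10.9% of all genes tested. These targets were read at 24 hours alone. *Phlda1*, a pleckstrin-homology-like gene induced by growth factors, read 9.73, 9.55 and 9.73 on Control and 8.79, 8.49 and 8.50 on PTH. It fell by 1.08 on the log2 scale (SE 0.14, limma adjusted p = 0.0123), with no overlap. *Egr3*, an early growth response transcription factor, read 9.60, 9.51 and 9.56 on Control and 8.93, 8.81 and 8.97 on PTH, and fell by 0.65 (SE 0.12, limma adjusted p = 0.0405). A second *Egr3* probe was above background on 2 arrays and was not tested. With an array left out the differences stayed at -0.68 to -0.61 for *Egr3* and -1.17 to -1.02 for *Phlda1*, but *Egr3* was no longer called without any 1 of the 6 arrays (adjusted p from 0.074 to 0.151), nor *Phlda1* without Control 1 (0.0709) or PTH 2 (0.0604). Median scaling (adjusted p = 0.105 for *Phlda1* and 0.878 for *Egr3*) also ended both calls. So did a block for the replicate number (limma adjusted p = 0.0517 for *Phlda1* and 0.0962 for *Egr3*).

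**Figure D3:**
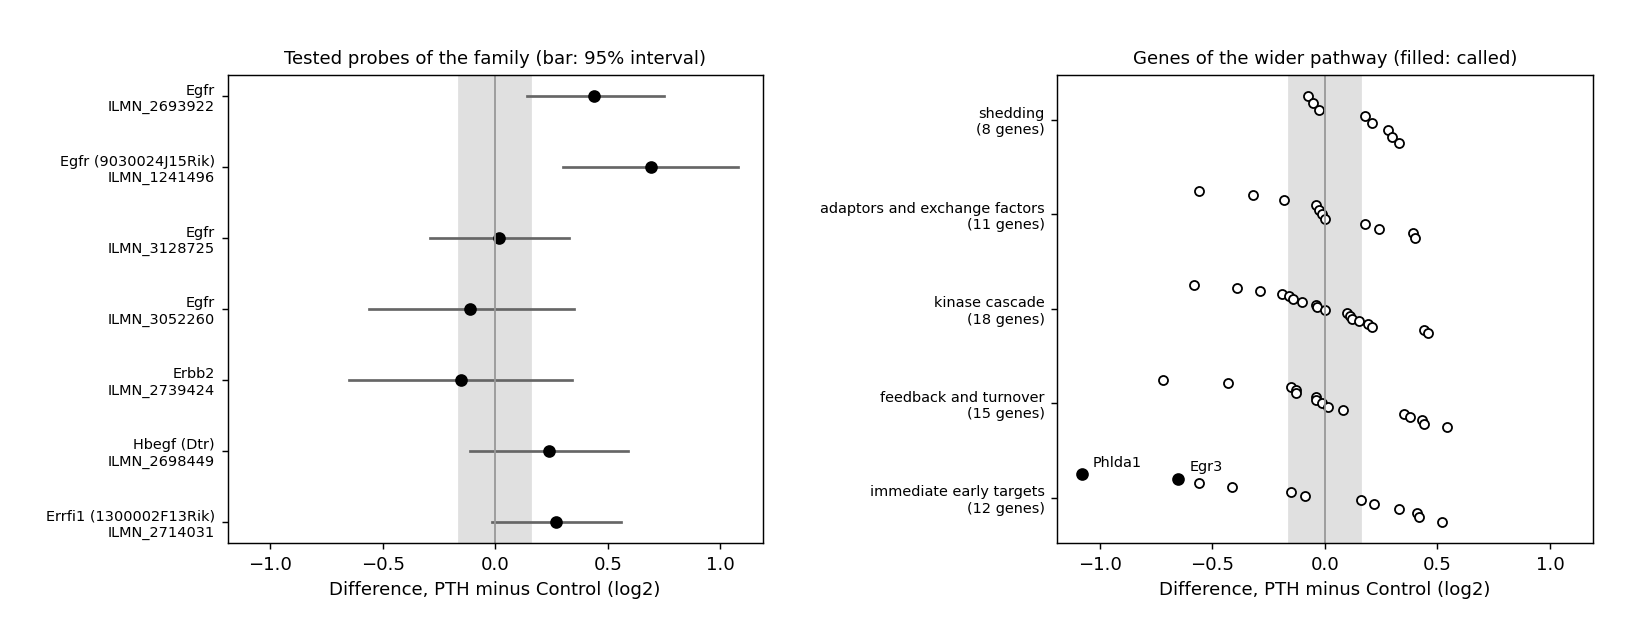
Log2 difference, PTH minus Control (x axis), of the 7 tested member probes with 95% intervals (left), and of the 64 tested genes of the wider pathway by group (right, 1 point a gene), with called genes filled. The grey band holds the middle part of all 11490 genes, between the quartiles -0.16 and 0.16. The intervals of the first 2 *Egfr* probes lie above 0 and the others cross it, and on the right only *Phlda1* and *Egr3* are filled.

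Markers of several cell types also differed between the groups, and their values stand beside the *Egfr* and *Errfi1* differences. Summed normalized signal over tested markers was 33600 to 35700 on Control and 21200 to 23000 on PTH for osteocytes and osteoblasts (10 of 12 markers tested, 0 called higher and 3 called lower, beside 1.76% of all genes called), while *Fgf23* and *Runx2* were above background on no array. All PTH arrays lay below Control for 8 of these markers and above for 1, beside 10.9% and 11.0% of all genes tested. The marker above Control was *Pdpn*, with a log2 difference of 0.70 (limma adjusted p = 0.056). Osteoclast markers had sums of 11900 to 13400 on Control and 16100 to 20600 on PTH (5 of 8 tested, 3 rose), with *Calcr*, *Ocstamp* and *Atp6v0d2* above background on no array. Neutrophil markers gave 52500 to 53300 and 34000 to 38500 (8 of 8 tested, 5 fell), and red cell markers 8520 to 9980 and 2330 to 2610 (2 of 5 tested, both fell). Macrophage sums overlapped, at 11200 to 14100 and 11400 to 14200 (6 of 7 tested, 0 called). *Lyz2* had the highest signal among them (log2 means 13.06 on Control and 13.12 on PTH), so it weighed most in the sums. Of the tested macrophage markers, 1 had all PTH arrays above Control and 2 had all below (11.0% and 10.9% of all genes). Endothelial sums were 1660 to 1830 on Control and 1600 to 1640 on PTH (8 of 8 tested, 0 called), mast cell sums 505 to 594 and 358 to 500 (2 of 8 tested, 0 called, 5 above background on no array), and skeletal muscle sums 47.3 to 58.5 and 43.3 to 56.9 (1 of 6 tested, 0 called). Of 7 epithelial markers 5 were above background on no array and 1, *Cdh1*, was tested (log2 difference 0.11). The part of these shifts in the member differences was not tested.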

How the data were processed

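RNA from 3 Control and 3 PTH preparations was hybridized to a bead array with 45281 probes. The authors deposited the intensity of every probe on the linear scale, not normalized, beside a detection p-value (GenomeStudio, per the submitters' processing notes). All value columns were used. Median intensity was 111 to 129, and 34.2% to 38.4% of probes were above background on an array. For arrays, the number of arrays limits the precision.

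Intensities were background corrected through the detection p-values, given an offset of 16, quantile normalized and taken to log2 with neqc in limma 3.58.1 (R 4.3.3). Groups came from the sample labels. The groups were compared with limma's moderated test (lmFit, eBayes), and p-values were adjusted over the 16214 tested probes (Benjamini-Hochberg). Each gene was represented by its tested probe with the highest mean signal. Symbols were brought to current ones through RefSeq synonyms on GRCm38.p6, of 31508 symbols 13424 directly and 8145 as older names. Permutation tests were exact and two-sided. The fit was tested on simulated data. The members and lists were chosen with earlier results of these data known. All members and every probe are named, and of the pathway list the called genes, the 3 largest differences, *Erbb4*, *Egf* and *Epgn*. *Adam17*, the other neuregulins and the markers were named in addition, after their values were seen. One marker of the Schwann cell list is not reported here.

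Alternatives were other normalizations, offsets and detection filters, single arrays left out, a block for the replicate number, other thresholds, the methods' t-test and other rules for probes. The count limited to members with a current symbol in the table was added after seeing the data. No slide is named, so a slide block was not run.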

Additional observations from a re-analysis of the deposited data

How the results depend on the processing

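The number of member genes called stayed at 0 under every alternative run except the methods' t-test at p under 0.05 without adjustment, which counted 2 (*Egfr* and *Errfi1*), where it counted 1721 of all genes, and 88 after Benjamini-Hochberg adjustment, with 0 members. The number of member probes called, 0, was 1 with an offset of 50, 1 with a detection p under 0.01 on all 6 arrays, 1 at an unadjusted p under 0.05 with 1.5-fold, and 3 by the methods' t-test before adjustment. Quantile normalization alone gave 2 *Egfr* probes an adjusted p under 0.05 (0.0348 at a log2 difference of 0.35, and 0.0122 at 0.47), both under 1.5-fold. Over arrays left out in turn, member genes and probes called were 0 to 0. *Egfr* lay between 0.41 and 0.52 (adjusted p 0.17 to 0.387), *Errfi1* between 0.20 and 0.32, *Hbegf* between 0.13 and 0.32 and *Erbb2* between -0.32 and 0.016, the last without PTH replicate 1. Under the other alternatives *Egfr* ranged from 0.26 to 0.59 (adjusted p 0.0348 to 0.686), *Errfi1* from 0.27 to 0.43 and *Hbegf* from 0.21 to 0.39. *Erbb2* ranged from -0.15 to -0.041. Median scaling moved the median of all genes to 0.12, and relative to it *Egfr* was 0.47 and *Errfi1* 0.32.

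The pathway list's 2 called genes became 1 with quantile normalization alone, 0 with median scaling, 0 with the replicate number as a block, 17 by the methods' t-test before adjustment, and 0 to 1 over arrays left out. Of all 11490 genes, 138 were called with quantile normalization alone and 1721 by that t-test before adjustment. With quantile normalization alone *Egr3* had a limma adjusted p of 0.000561, but its log2 difference of -0.56 was under 1.5-fold. With median scaling *Phlda1* was -0.92 (adjusted p = 0.105) and *Egr3* -0.48 (0.878), or -1.04 and -0.60 relative to the median of all genes. The cause of the calls lost with median scaling was not tested. Over all genes the 202 calls were 103 with median scaling (63 higher and 40 lower, against 81 and 121), 154 with no detection filter, 601 at an unadjusted p with 1.5-fold, 43 with the replicate block and 49 to 93 with an array left out. Arrays of the same number correlated at 0.07, 0.06 and 0.27 in their deviations from group means, 1 of 3 over 0.1. The main fit did not pair the samples by number. Pairs of an array 3 with an array of another number correlated at -0.13 or -0.14. Probes above background on Control and PTH were 15758 and 15504 for number 1, 16451 and 16352 for number 2, and 17369 and 17374 for number 3. Whether arrays of the same number share a batch was not tested. With the block *Egfr* had an adjusted p of 0.184, *Phlda1* 0.0517 and *Egr3* 0.0962. A count limited to members with a current symbol in the table covered 5 tested probes of 2 genes, *Egfr* and *Erbb2*. It still included the *Egfr* probe listed as 9030024J15Rik. Probes near background limit what can be read from the ligands.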
